A study of Danio rerio with 8 samples.

Results

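RNA sequencing profiled cells isolated from 28 hours post fertilization zebrafish as kdrl-positive, and the transcriptome of the 4 libraries from siblings of sf3b1 mutants is described here. These are 4 of 8 libraries, the other 4 being from the mutants, which were not used. A gene was taken as expressed when it reached at least 1 CPM (1 count in every 1000000 of the library's column total) in each sibling library. That held for 14388 of the 31901 genes in the count table. The labels name the sibling cells as endothelial cells isolated as kdrl-positive, from total RNA depleted of ribosomal RNA. A label on the count table names kdrl together with GFP, so the isolation may have followed a reporter, but the labels describe neither a reporter nor a sort gate. They give no allele of sf3b1, no genotype of the siblings (which may include carriers), and no number of embryos per library. Nothing states that the 4 replicates came from separate clutches or sorts, so the spread given below is that between these libraries and may be technical. With a single group no difference between groups can be tested, and the values are given as descriptions.

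Endothelial cells line blood vessels and the heart. They respond to VEGF through receptor tyrosine kinases such as Kdrl, and they hold together through the junction cadherin encoded by cdh5. In the zebrafish embryo at this stage blood circulates, the first arteries and veins have formed, sprouts are growing between the somites, and part of the floor of the dorsal aorta is hemogenic, giving rise to blood stem cells. Primitive red cells arise from mesoderm that also produces endothelium.

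The 5 genes used to check the label had more than 1000 counts in every library. kdrl, the VEGF receptor gene used for isolation, stood at 608, 615, 903 and 1082 CPM in sibling replicates 1, 2, 3 and 4 (mean 802 ± 232, SD, n = 4). For cdh5, which encodes vascular endothelial cadherin, the values in the same order were 624, 574, 1021 and 1116 CPM (834 ± 275). Both genes were higher in replicates 3 and 4 than in replicates 1 and 2, by up to 1.78-fold between the lowest and the highest library for kdrl and 1.94-fold for cdh5. TIE1, an orphan receptor of the angiopoietin pathway, stood at 330.0, 287, 516 and 627 CPM (440.1 ± 159), with replicates 3 and 4 highest again. FLI1, an ETS transcription factor that marks endothelium and early blood, stood at 292, 288, 387 and 519 CPM (372 ± 108). EGFL7, a secreted factor of endothelial cells, stood at 176, 148, 256 and 188 CPM (192 ± 46.1) and was highest in replicate 3. The markers of the label were thus present throughout. No library of other cells was at hand, so their presence does not show enrichment. SF3B1, the gene mutated in the other libraries, stood at 303, 206, 317 and 360.0 CPM in these siblings (297 ± 64.9). Since a longer transcript gives more counts and no transcript lengths were at hand, CPM values are compared between libraries, not between genes.

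**Figure D1:**
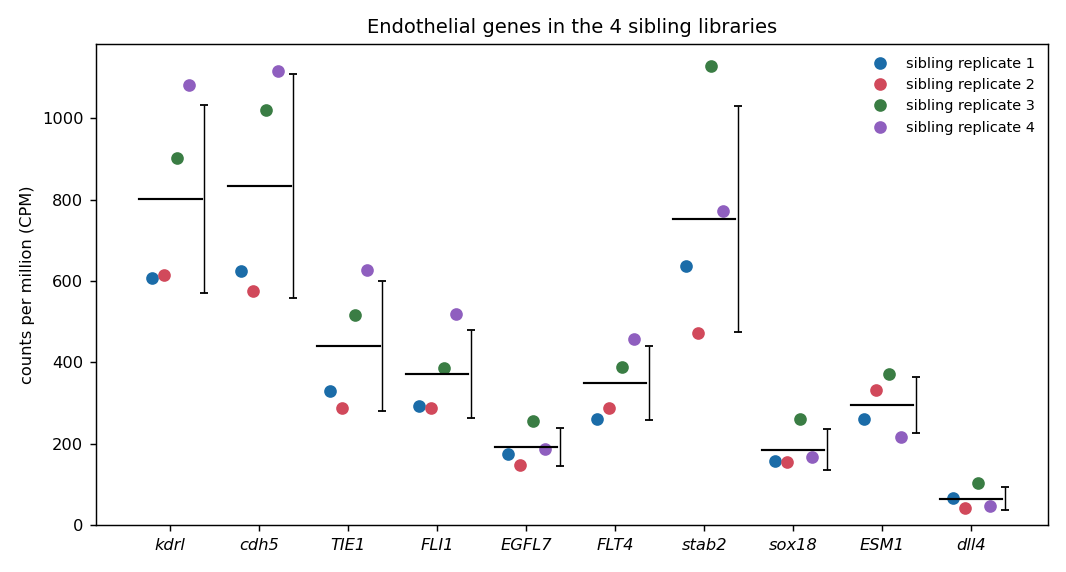
CPM of 10 endothelial genes (x axis) in the 4 sibling libraries (coloured points), with the mean as a black line and the SD over 4 libraries as a bar beside it. Replicate 4 is highest for kdrl, cdh5, TIE1, FLI1 and FLT4, and replicate 3 for EGFL7, stab2, sox18, ESM1 and dll4.

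Receptors of the VEGF and angiopoietin pathways were all expressed, 10 of 10 genes of that list, where 45.1% of all genes in the table and 53.0% of genes with a symbol outside the small non-coding RNAs were. Their summed CPM was 2032, 1913, 2942 and 3454 in replicates 1 to 4 (2585 ± 739.6, 0.259% of counts). In bulk samples such as these, fewer cells of a type and less RNA per cell cannot be told apart. Besides kdrl and TIE1, FLT4, the VEGFC receptor of veins and lymphatics, stood at 260.4, 289, 389 and 457 CPM. KDR, a further VEGF receptor gene, stood at 166, 142, 254 and 345 CPM, and NRP2 (ENSDARG00000038446), a neuropilin co-receptor, at 200.2, 153, 241 and 239.8 CPM. tek, the angiopoietin receptor, stood at 81.8, 47.5, 88.7 and 105 CPM and flt1, which encodes a decoy receptor for VEGF, at 46.9, 33.5, 88.3 and 83.3 CPM. No gene of this list was highest in replicate 1 or 2. The highest library was replicate 3 for 3 genes and replicate 4 for 7, against 24.4% and 26.3% of all expressed genes.

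Of the endothelial transcription factor list, 25 of 27 genes were expressed, summing to 2352, 2294, 3141 and 3159.8 CPM. KLF6, a zinc finger factor that is also an immediate early gene, held the largest share at 589.6, 401, 691 and 436 CPM. MEF2C (ENSDARG00000029764), a MADS-box factor of endothelium and muscle, stood at 135, 165, 234 and 307 CPM. The SoxF genes sox18 and SOX7, which act in vessel identity, stood at 157, 155, 261 and 168 CPM and 97.3, 109, 174 and 233 CPM. sox18 was between 155 and 168 CPM in 3 libraries and apart only in replicate 3, whereas SOX7 was highest in replicate 4. ERG, an ETS factor of mature endothelium, stood at 48.1, 59.1, 77.2 and 88.8 CPM, ETS1 at 35.5, 33.8, 50.99 and 94.2 CPM, and npas4l, which is needed at the start of endothelial and blood development in zebrafish, at 66.9, 70.00, 82.4 and 125 CPM. SOX17 did not reach 1 CPM in 3 of the libraries (0.291, 0, 0.167 and 2.37 CPM).

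Junction and surface genes held 0.506% of counts, with 26 of 32 genes expressed and sums of 4401, 4237, 5976 and 5617 CPM. CDH2, which encodes N-cadherin and is also a neural and mesenchymal gene, did not follow cdh5: it stood at 939, 884, 762 and 709.8 CPM, lowest in replicates 3 and 4. TJP1 (ENSDARG00000077506), a tight junction scaffold, stood at 455, 514, 580.5 and 559.9 CPM. she, an adaptor gene of endothelium, stood at 269.5, 312, 432 and 437 CPM and rasip1, needed for vessel lumens, at 245, 225, 372 and 348 CPM. Both were higher in replicates 3 and 4 than in replicates 1 and 2. So was the guidance receptor gene robo4, at 156, 135, 210.4 and 213 CPM. The selectin gene sele (ENSDARG00000009123) stood apart in replicate 3, with 145, 116, 395 and 181 CPM. thsd1 had no count in any library, where a count of 0 allows up to 0.245 to 0.291 CPM, depending on the library (3 counts of the library total, counting error only).

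Arterial and Notch genes were expressed in 26 of 28 cases and summed to 2431, 1835, 2857 and 2371 CPM, lowest in replicate 2. The receptor genes led the counts: NOTCH1 (ENSDARG00000052094) stood at 525, 401, 518 and 469.9 CPM, a further NOTCH1 gene (ENSDARG00000103554) at 381, 289.8, 486 and 316 CPM, and NOTCH3, which is also a mural cell gene, at 388, 299, 465 and 371 CPM. Among the ligands, jag2b stood at 142, 143, 159 and 228 CPM and dll4, the arterial and tip cell ligand, at 66.1, 41.2, 104 and 47.1 CPM. dll4 was 103.7 CPM in replicate 3 and below 67 CPM in the other libraries. EFNB2 (ENSDARG00000020164), the ephrin ligand of arteries, stood at 123, 71.9, 135 and 148 CPM, and the Notch target HEY2 at 31.3, 23.5, 43.7 and 62.02 CPM. Connexin genes of arteries were near the threshold, with 1.75, 1.02, 4.42 and 5.88 CPM for GJA5 (ENSDARG00000040065) and 1.55, 1.68, 3.999 and 3.76 CPM for gja4.

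Venous and lymphatic genes summed to 3010.5, 2614, 4713 and 3818 CPM, with 18 of 21 genes expressed. The scavenger receptor genes stab2 and stab1, which mark veins and other clearing endothelium, stood at 638, 473, 1128 and 771 CPM and 329, 274, 540.5 and 423 CPM. MRC1 (ENSDARG00000002100), a mannose receptor gene, stood at 360.0, 271, 565 and 348 CPM. All 3 were highest in replicate 3 and lowest in replicate 2. ctsla, a lysosomal protease gene that is in this list and in the yolk and liver list, showed the same order with 456, 406, 754 and 502 CPM. ephb4b, a receptor of venous cells, differed from them, with 77.8, 110.0, 139.7 and 225 CPM and its highest value in replicate 4. The lymphatic genes lyve1b and PROX1 stood at 29.8, 27.3, 48.7 and 32.03 CPM and 30.3, 22.2, 39.8 and 24.2 CPM.

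Endocardial genes summed to 1656, 1484, 2176 and 2085 CPM (17 of 19 expressed), of which NOTCH1 and TIE1, shared with other lists, held the most. NFATC1, a factor of endocardium and valves, stood at 64.8, 129, 86.2 and 151 CPM and the flow-responsive klf2b at 64.9, 88.6, 131 and 128 CPM. gata4, which is expressed in heart mesoderm and endocardium, stood at 28.4, 31.9, 35.2 and 58.2 CPM, highest in replicate 4. In the tip cell and angiogenesis list 23 of 27 genes were expressed, summing to 1525, 1580.4, 2092 and 1848 CPM. ESM1, a secreted proteoglycan of tip cells, stood at 260.3, 332, 371 and 217 CPM and pdgfba, a ligand that recruits mural cells, at 164, 250.3, 256 and 194 CPM. Both were lowest in replicates 1 and 4. plxnd1, the semaphorin receptor that limits sprouting, stood at 153, 126, 196 and 235 CPM, and aplnrb, an apelin receptor, at 83.9, 79.5, 133 and 152 CPM, both highest in replicate 4. cxcl12b, a chemokine of the forming vessels, stood at 66.7, 46.5, 138 and 104 CPM, highest in replicate 3.

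Counted once each, the 7 endothelial lists hold 150 genes, of which 132 were expressed (88.0%). That compares with 45.1% of all genes in the table and 53.0% of genes with a symbol outside the small non-coding RNAs. A high share was not particular to endothelial lists. It was 97.1% for erythroid genes other than globins, 93.3% for neutrophil and 82.9% for epidermis genes, but 61.2% for 10 lists of other tissues. The lists were chosen with earlier results of these data known, so these shares do not check the label. The 7 endothelial lists summed to 15474, 14299, 21321 and 19909.6 CPM in replicates 1, 2, 3 and 4 (17751 ± 3391, 1.78% of counts). Of the 132 genes, 10 were highest in replicate 1, 4 in replicate 2, 68 in replicate 3 and 50 in replicate 4. Over all 14388 expressed genes, 19.1% were highest in replicate 1, 30.2% in replicate 2, 24.4% in replicate 3 and 26.3% in replicate 4. The lowest library of the 132 genes was replicate 2 for 72 of them and replicate 1 for 40. Over all expressed genes, the lowest library was replicate 1 for 24.5%, replicate 2 for 33.9%, replicate 3 for 20.1% and replicate 4 for 21.5%. Genes of other cells moved along the same replicates. The epidermis list (29 of 35 expressed and none at 0 in every library) had sums of 6266, 7536, 15317 and 14196 CPM, also highest in replicates 3 and 4. The erythroid lists with all globins (45 of 51 expressed and 3 at 0 in every library) had sums of 26616, 31626, 16129 and 21888 CPM, lowest in the same replicates. The part of these other cells in the endothelial values was not tested.

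Blood genes were counted in every library. The globin list as matched summed to 10999, 12456, 7195 and 9763 CPM (10104 ± 2229.8). Of its 9 genes 7 were expressed (77.8%), against 53.0% of genes with a symbol outside the small non-coding RNAs. The alpha globin gene hbae3 stood at 5810.4, 6323, 3067 and 4908 CPM and the beta globin gene hbbe3 at 4852, 5612, 3791 and 4529 CPM, highest in replicate 2 and lowest in replicate 3 in both cases. Further globin genes, of which 4 of 7 were expressed, carry the symbol HBE1 in the table of gene names, which does not separate embryonic from adult genes. Added after the values were seen, they bring the globins to 11 of 16 genes expressed and a sum of 16121, 18498, 9874 and 12707 CPM (14299.9 ± 3788, 1.43% of counts). The HBE1 genes ENSDARG00000087390 and ENSDARG00000115405 stood at 2079, 2209, 1040.4 and 1175 CPM and 1965, 2129, 1085 and 1095 CPM. Globin copies are near identical, so counts may be split among them and single values are uncertain. hbaa2, an adult globin gene, had no count in any library.

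Other erythroid genes followed the globins, with 34 of 35 expressed and sums of 10495, 13128, 6255 and 9180.1 CPM, a 2.099-fold range. SPTB, the red cell spectrin, stood at 1482, 1969.9, 894 and 1481 CPM and epb41b, a membrane skeleton gene, at 1028, 1826, 562 and 928 CPM. SLC4A1 (ENSDARG00000012881), the anion exchanger of red cells, stood at 1093, 1090.0, 636 and 912 CPM. The transferrin receptor gene tfr1a, through which red cell precursors take up iron, stood at 856, 827, 593 and 864 CPM, apart only in replicate 3. Heme synthesis genes showed the same low replicate 3, with 658, 629, 391 and 605 CPM for alas2 and 615, 849, 371 and 540.5 CPM for FECH. The lineage factors gata1a and klf1 stood at 35.4, 40.3, 25.7 and 21.5 CPM and 85.2, 116, 54.9 and 83.2 CPM. Of the 34 genes, 24 were highest in replicate 2, against 30.2% of all expressed genes, and 28 were lowest in replicate 3, against 20.1% of all.

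Hemogenic and stem cell genes summed to 837, 1006, 784 and 908 CPM. Of the list 14 of 16 genes were expressed (87.5%), against 53.0% of genes with a symbol outside the small non-coding RNAs. The median coefficient of variation was 19.3% over the 14 genes, against 22.5% over all expressed genes of 10 to 100 CPM. MYB, a factor of blood stem and progenitor cells, stood at 80.3, 114, 77.5 and 98.8 CPM and CBFB, the partner of Runx1, at 102, 154, 103 and 120.2 CPM. GFI1B, which acts in hemogenic endothelium and in red cells, stood at 152, 279, 110.1 and 164 CPM and was highest in replicate 2. TAL1 and LMO2, shared by blood and endothelium, stood at 71.02, 64.3, 46.2 and 55.2 CPM and 30.4, 45.2, 27.7 and 28.7 CPM. gata2b stood at 0, 0, 2.33 and 0.327 CPM and did not reach the threshold in replicates 1, 2 and 4.

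Leukocyte genes were also counted. The neutrophil list (14 of 15 expressed) summed to 896, 874, 1001 and 976 CPM, led by the protease gene npsn with 352, 272, 338 and 292 CPM, and lyz, the lysozyme gene, stood at 6.02, 11.3, 13.00 and 9.48 CPM. The macrophage and pan-leukocyte list (22 of 38 expressed) summed to 867, 1117, 805 and 846 CPM. Its share expressed, 57.9%, was near the 53.0% of genes with a symbol outside the small non-coding RNAs. For the neutrophil list the share was 93.3%. LCP1, an actin bundler of leukocytes, stood at 219.7, 273, 170.0 and 183 CPM, and ptprc, the pan-leukocyte phosphatase, at 58.3, 89.9, 54.6 and 63.3 CPM. SPI1 (ENSDARG00000000767), a myeloid transcription factor, stood at 129.5, 267, 107 and 134 CPM, with replicate 2 apart. The complement genes c1qa and c1qc and 1 of the MFAP4 genes (ENSDARG00000111491) had no count, and marco, a scavenger receptor of macrophages, was counted only in replicate 3. The thrombocyte list summed to 804, 902, 1071 and 1337 CPM, but the fibronectin gene FN1 (ENSDARG00000019815, 278, 326, 346 and 557 CPM) and THBS1 (ENSDARG00000010785, 152, 159.6, 214 and 272 CPM), matrix genes of many cells, led it. itga2b, the platelet integrin, stood at 12.13, 5.49, 11.4 and 8.42 CPM.

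**Figure D2:**
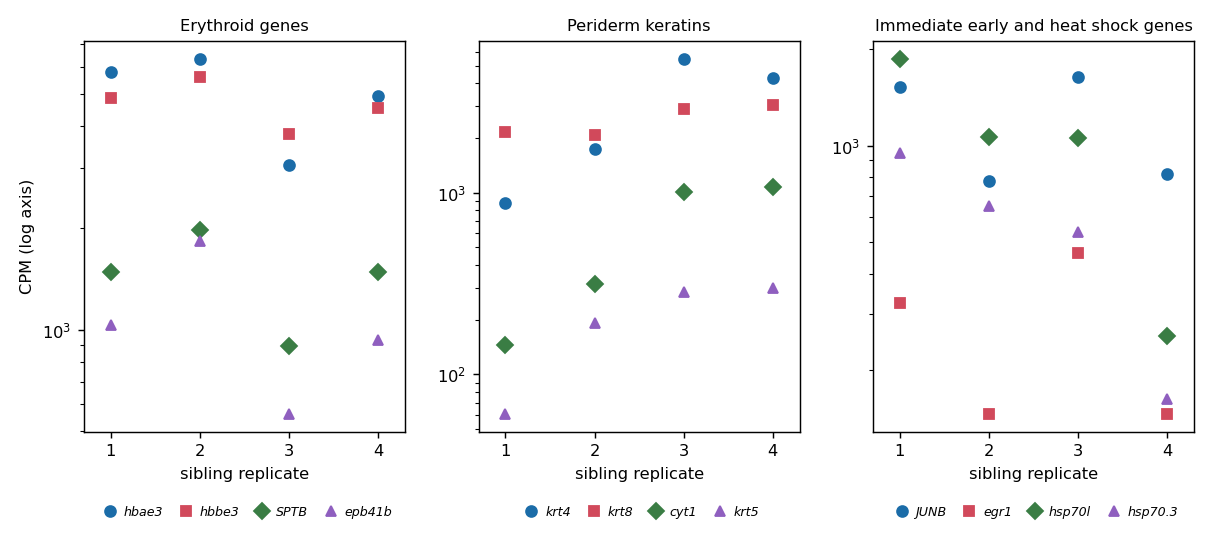
CPM on a log axis of 4 erythroid genes (left), 4 keratin genes (centre) and 4 immediate early or heat shock genes (right) in sibling replicates 1 to 4, 1 point per library. The erythroid genes are lowest in replicate 3, the keratins krt4, cyt1 and krt5 are lowest in replicate 1, and hsp70l and hsp70.3 are lowest in replicate 4.

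Epidermal genes ranged widely between the libraries. The epidermis and periderm list held 1.08% of counts and summed to 6266, 7536, 15317 and 14196 CPM in replicates 1 to 4, a 2.44-fold range. krt4, a keratin of the embryonic skin surface, stood at 878, 1736, 5448 and 4306 CPM, and the type I keratins cyt1l and cyt1 at 148, 385, 1108 and 979 CPM and 145, 313, 1014 and 1072 CPM. krt5, of epidermal cells, stood at 60.5, 193, 283 and 301 CPM. All 4 were lowest in replicate 1, with 6.21-fold between the lowest and the highest library for krt4 and 4.97-fold for krt5. krt8 and krt18a.1, keratins of simple epithelia, ranged less, with 2168, 2073, 2897 and 3053 CPM and 1357, 1338, 1892 and 1952 CPM. cdh1, the epithelial cadherin, stood at 202, 159.8, 276 and 269 CPM. TP63, the factor of basal epidermis, stood at 29.9, 34.9, 41.3 and 28.8 CPM and did not follow the keratins. The envelope genes evpla and PPL, whose products link keratins to desmosomes, stood at 6.69, 22.9, 129 and 109 CPM and 30.4, 80.5, 239.9 and 245 CPM.

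Genes of mesenchyme and connective tissue summed to 3131, 2883, 4323 and 4777 CPM. Of the list 30 of 38 genes were expressed (78.9%), against 53.0% of genes with a symbol outside the small non-coding RNAs. The collagen genes COL2A1 (ENSDARG00000069093, 451, 453, 820.1 and 676 CPM), COL1A1 (ENSDARG00000035809, 441, 429, 564 and 748 CPM) and col1a1a (359, 312, 549 and 625 CPM) led the list. All 3 were higher in replicates 3 and 4 than in replicates 1 and 2. Mural cell genes summed to 832, 692, 935 and 852 CPM. PDGFRB, the receptor of pericytes, stood at 68.9, 44.7, 83.1 and 79.3 CPM and TAGLN (ENSDARG00000033466), a smooth muscle gene, at 92.9, 98.2, 117 and 97.5 CPM, while KCNJ8, a potassium channel gene of pericytes, had no count. Basement membrane and matrix genes, which endothelium also produces, summed to 5250.4, 4817, 6552 and 7008 CPM. lamc1, a laminin subunit, stood at 617, 511, 837 and 927 CPM and lama4, of the vascular basement membrane, at 249, 216, 313 and 414 CPM.

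Neural genes were expressed in 39 of 53 cases (73.6%), against 53.0% of genes with a symbol outside the small non-coding RNAs. They summed to 2452, 2443, 2343 and 1868 CPM, lowest in replicate 4. ELAVL3, a neuronal RNA-binding protein, stood at 557, 810.3, 528 and 392 CPM, NOVA1 (ENSDARG00000017673), a neuronal splicing factor, at 394, 305, 422 and 340.4 CPM, and ZIC2 (ENSDARG00000037178), a neural plate factor, at 394, 306, 315 and 276 CPM. SOX2, of neural progenitors, stood at 112, 81.5, 85.7 and 63.00 CPM. Several genes of the list were not counted or were near the threshold. her4.3, tubb2b and FABP7 (ENSDARG00000034650) had no count. FABP7 was matched without the paralogue letter of its entry, so it may not be the intended gene. neurog1, a proneural factor, stood at 0.873, 0.838, 3.33 and 1.72 CPM. Neural crest and pigment genes summed to 389, 297, 474 and 290.5 CPM, led by SOX9 (ENSDARG00000003293, 179, 116, 168 and 89.2 CPM), while SOX10, the crest factor, stood at 28.4, 10.3, 27.00 and 16.5 CPM.

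Skeletal muscle genes summed to 882, 719, 1016 and 1167 CPM. Of the list 29 of 36 genes were expressed (80.6%), against 53.0% of genes with a symbol outside the small non-coding RNAs. The actin gene actc1b stood at 132, 121, 182 and 133 CPM, and the fast myosin gene myhz1.1 and the calcium pump gene atp2a1 were apart in replicate 4, with 58.3, 43.6, 28.2 and 141 CPM and 90.03, 68.8, 88.5 and 191 CPM. The muscle factors MYOD1, MYOG and MYF5 did not reach the threshold. Cardiac muscle genes gave the widest range of any list, 3.33-fold, with sums of 409, 123, 262 and 239 CPM. MYH6 (ENSDARG00000079564), a heart myosin heavy chain gene, stood at 167, 47.6, 91.1 and 87.8 CPM and MYL7, the heart myosin light chain, at 14.4, 3.72, 14.3 and 10.4 CPM. Both were lowest in replicate 2, as were 9 of the 11 expressed genes of the list, and 10 of the 11 were highest in replicate 1. Of all expressed genes, 33.9% were lowest in replicate 2 and 19.1% highest in replicate 1. Only 6 of the 11 genes had a mean of 10 CPM or more, and replicate 2 had the fewest genes counted (18546). The part of low counts in this order was not tested. Notochord genes summed to 248, 233, 509.7 and 435 CPM, with no count for noto. CCN2, a matrix-associated growth factor gene that is not limited to notochord, held the most of that sum (111, 100.3, 216 and 186 CPM), and SHH (ENSDARG00000068567), the notochord and floor plate morphogen, stood at 15.1, 6.05, 29.6 and 29.7 CPM.

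Most genes of the yolk, liver and gut list and of the list of hatching gland, lens, ear and germ cell genes were not expressed. Of the yolk, liver and gut list, 10 of 35 genes were expressed (28.6%, below the 45.1% of all genes), and ctsla held most of the sum of 612, 505, 949.8 and 642 CPM. The liver genes serpina1 and serpina1l had no count, and fabp10a, a liver fatty acid carrier, stood at 0, 1.77, 0.583 and 0 CPM. Pronephros genes summed to 560.2, 535, 570.1 and 559.7 CPM, the narrowest range of all lists, 1.07-fold. That holds for the sum only. The 13 expressed genes had a median coefficient of variation of 27.5%, against 25.4% over all expressed genes. Of the hatching gland, lens, otic and germ cell list 4 of 27 genes were expressed (14.8%, also below the 45.1% of all genes). These were the ear genes oc90, OTOG, TECTA and otomp, and the list summed to 85.4, 102, 71.5 and 52.1 CPM. The lens crystallin genes CRYAA and crygm2d1, the hatching enzyme genes he1.2 and hce2l1 and the germ cell gene NANOS3 had no count. Counted once each, the 10 lists of mesenchyme, mural, neural, crest, muscle, heart, notochord, yolk, pronephros and gland tissues had 175 of 286 genes expressed (61.2%) and held 1.01% of counts. Their share expressed was near the 53.0% of genes with a symbol outside the small non-coding RNAs.

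**Figure D3:**
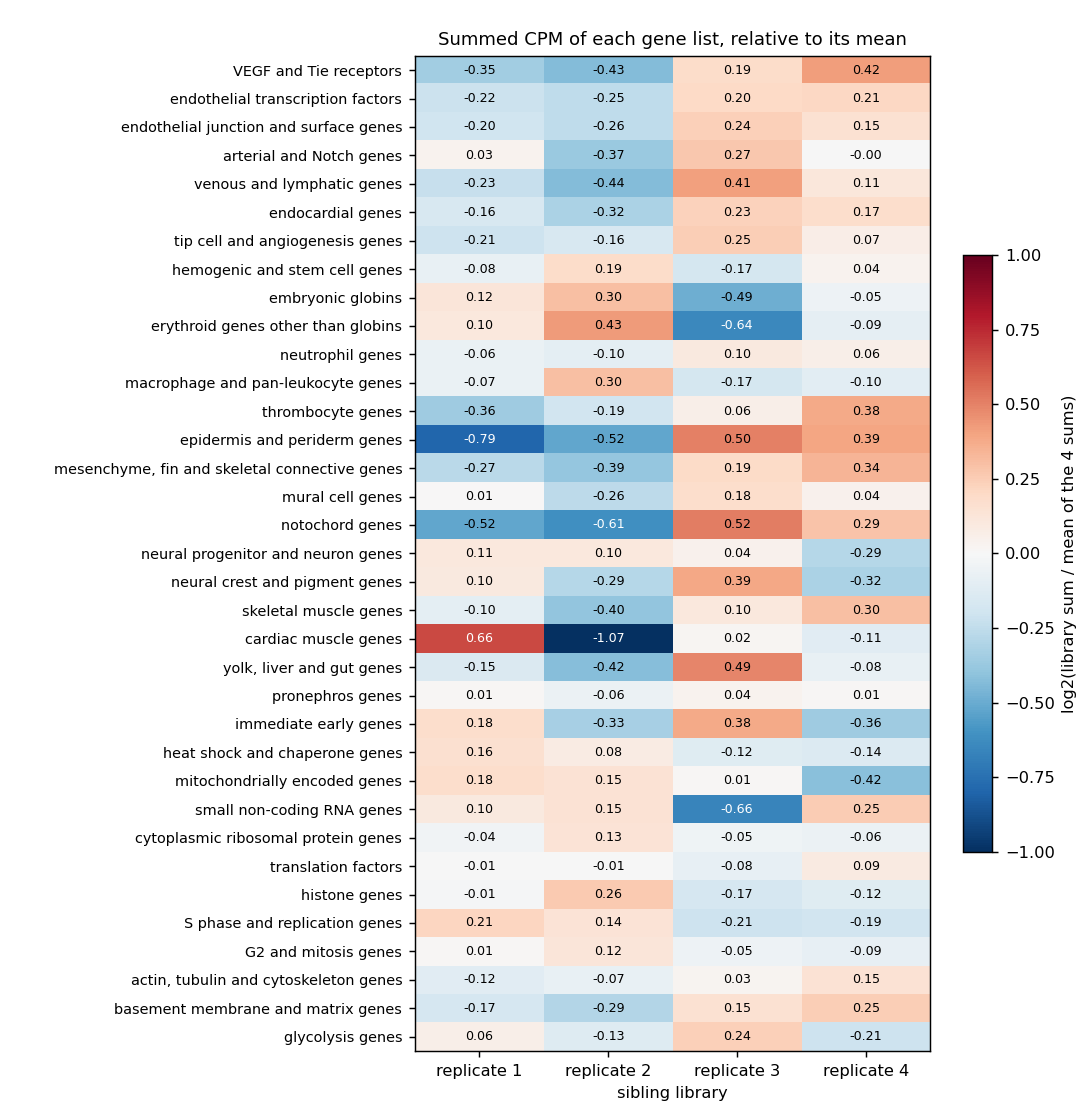
Summed CPM of 35 gene lists in each sibling library, as log2 of the library's sum over the mean of the 4 sums (red above the mean, blue below). Endothelial lists are blue in replicate 2 and, but for arterial and Notch genes (0.03), in replicate 1. Erythroid lists are blue in replicate 3 (-0.49 for globins and -0.64 for the other erythroid genes). Cardiac muscle runs from 0.66 in replicate 1 to -1.07 in replicate 2.

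The counts were concentrated in few genes. A single gene without a symbol in the reference tables, ENSDARG00000080337, took 12.3%, 9.71%, 11.9% and 10.1% of the counts of replicates 1, 2, 3 and 4. A second one, ENSDARG00000082753, took 1.74% on average. The 10 most counted genes held 17.6% to 19.7% of a library and the 100 most counted 29.5% to 31.6%, and 583 to 680 genes made up 50% of the counts. The 58 genes with a mean of 1000 CPM or more held 26.5% of all counts, and the 4846 expressed genes below 10 CPM held 2.62%. The median expressed gene had a mean of 18.5 CPM.

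**Figure D4:**
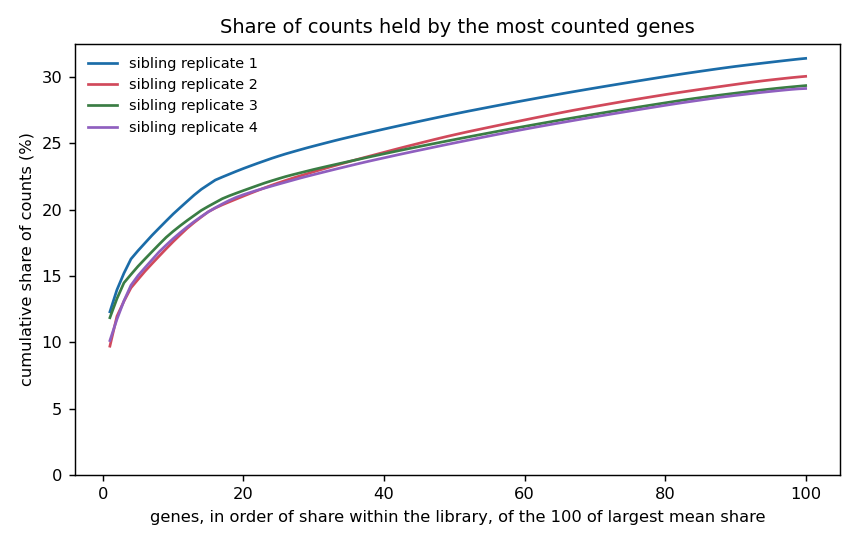
Cumulative share of a library's counts (y axis, %) over the 100 genes of largest mean share, ordered within each library (x axis), 1 line per sibling library. All lines start at 9.71% to 12.3% for a single gene.

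Among the 30 genes with the largest mean share, most belong to translation, protein folding, the cytoskeleton and red cells, and ranks by share favour long transcripts. The nuclear non-coding RNA malat1 held 1.22% of counts (12574, 10102, 11973 and 13963 CPM) and rn7sl1, the RNA of the signal recognition particle, 1.004% (10723, 11376, 6305 and 11769 CPM). The elongation factors eef2b and eef1a1l1 held 0.648% and 0.543%. The chaperones HSPA8 (ENSDARG00000068992), HSP90AB1 and HSPA5 held 0.559%, 0.515% and 0.417%. The actins actb2 and actb1 held 0.555% and 0.3604%. Also among the 30 were hmga1a, a chromatin protein (0.416%), the filamin gene flna, the poly(A)-binding protein gene pabpc1a, the ferritin gene fth1a, the RNA-binding protein gene igf2bp1, the ribosomal protein genes RPS2, RPL3 and RPL4, the mitochondrial gene MT-CO1, and si:ch211-222l21.1. The red cell genes hbae3, hbbe3, SPTB and 2 HBE1 genes and the keratins krt4, krt8 and krt18a.1 completed the list with HSP90AA1 (ENSDARG00000024746). That chaperone gene varied most after krt4 within the 30, with 4272, 5728, 2205 and 1272 CPM in replicates 1 to 4.

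Among translation genes, the summed CPM of ribosomal protein genes was apart in replicate 2. These genes held 4.13% of counts, with 78 of 80 expressed, sums of 40241, 45332, 39984 and 39604 CPM and a median coefficient of variation of 12.9%. Of the 78, 43 were highest in replicate 2, against 30.2% of all expressed genes. Translation factors held 2.31%, with sums of 22961, 22996, 21836 and 24514 CPM. Cytoskeleton genes held 2.47%, with sums of 22835, 23521, 25238 and 27356 CPM. These sums include krt8 and krt18a.1, which are in the epidermis list too and were higher in replicates 3 and 4. Glycolysis genes held 0.102%, with 196, 171, 217 and 185 CPM for the hexokinase gene HK1 and 63.5, 39.9, 102 and 41.3 CPM for the lactate dehydrogenase gene LDHA.

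Cell cycle genes were nearly all expressed, 53 of 54 of the S phase list and 52 of 53 of the G2 and mitosis list. Of genes with a symbol outside the small non-coding RNAs, 53.0% were. Such a share was not particular to cell cycle genes, being 97.5% for ribosomal protein and 95.9% for cytoskeleton genes. S phase genes summed to 4882, 4643, 3656 and 3688 CPM, and of the 53 expressed 21 were highest in replicate 1 and 26 in replicate 2. Over all expressed genes these shares were 19.1% and 30.2%. PCNA, the replication clamp, stood at 527, 512, 335 and 342 CPM and RRM1, a ribonucleotide reductase subunit, at 414, 339, 303 and 299 CPM. Mitosis genes summed to 7598, 8198, 7262 and 7106 CPM, a 1.15-fold range, against 1.34-fold for the S phase sums. mki67, the proliferation marker, stood at 936, 937, 814 and 747 CPM, TOP2A, the mitotic topoisomerase, at 488, 482, 519 and 449.8 CPM, and the spindle gene TPX2 at 269, 276, 260.0 and 266 CPM. The kinetochore motor gene cenpe was even in 3 libraries and higher in replicate 2, with 513, 781, 480.2 and 512 CPM. Histone genes summed to 4132, 4997, 3707 and 3839 CPM, with 19 of the 31 expressed genes highest in replicate 2, against 30.2% of all. The linker histone gene histh1l1 stood at 977, 1344, 954 and 1164 CPM. Histone genes lie in near-identical copies, so single values are uncertain.

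Immediate early genes, which cell dissociation can induce, differed between libraries. Of the list 45 of 47 genes were expressed (95.7%), against 53.0% of genes with a symbol outside the small non-coding RNAs. The share was also 95.7% for heat shock and chaperone genes. Of the 45 immediate early genes, 33 were highest in replicate 3, against 24.4% of all expressed genes. None was lowest there, against 20.1% of all. The sums were 9590.5, 6738, 11014 and 6621 CPM. JUNB (ENSDARG00000104773), a subunit of AP-1, stood at 1524, 778, 1633 and 816 CPM and egr1, a zinc finger factor, at 323, 146, 465 and 146 CPM. Both were high in replicates 1 and 3 and low in replicates 2 and 4. SOCS3 (ENSDARG00000026611), a feedback inhibitor of cytokine signals, showed the same order with 68.4, 21.7, 88.9 and 32.8 CPM. FOSL1, another AP-1 subunit, differed, with 1214, 872, 926 and 489 CPM and its highest value in replicate 1.

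The sums of the heat shock genes followed another order of libraries, but single genes differed. The heat shock and chaperone list held 2.54% of counts, with sums of 28289, 26850.2, 23286 and 23099 CPM. Of its 45 expressed genes, 24 were highest in replicate 2, against 30.2% of all expressed genes. The lowest library was replicate 3 for 18 of them and replicate 4 for 21, against 20.1% and 21.5% of all. The constitutive chaperones HSPA8 (5828, 4993, 5592 and 5938 CPM) and HSP90AB1 (5361, 5549, 4563 and 5111 CPM) were even. The inducible genes were not: hsp70l stood at 1860.5, 1067, 1054 and 257 CPM and hsp70.3 at 949, 647, 539 and 163 CPM. In both, replicate 4 was lowest, by 4.11-fold and 3.30-fold against the nearest library. HSPH1 (86.3, 84.5, 36.4 and 17.2 CPM), BAG3 (209, 109.8, 184 and 92.8 CPM) and dnajb1b (537, 197, 351 and 110.2 CPM) are co-chaperone genes of the same response and were lowest in replicate 4 too. Copies of hsp70 are near identical, so their single values are uncertain.

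Mitochondrially encoded protein genes and small non-coding RNAs had their own patterns. Both lists were matched by symbol, so the 2 genes of largest share, which have no symbol, are in neither. All 13 mitochondrially encoded protein genes were expressed, summing to 6008, 5878, 5360.2 and 3977 CPM, and 11 of the 13 were lowest in replicate 4, against 21.5% of all expressed genes. MT-CO1, a subunit of cytochrome oxidase, stood at 2274, 2431, 1866 and 1529.5 CPM. Of 3022 small non-coding RNA genes listed, 73 (2.42%) were expressed, against 45.1% of all genes in the table. The small non-coding RNA genes summed to 17752, 18408, 10538 and 19771 CPM, and 53 of the 73 were lowest in replicate 3, against 20.1% of all expressed genes. Many of the 73 carry the symbols Metazoa_SRP or rn7sl1, copies of the signal recognition particle RNA. The 53 genes thus do not stand for as many separate RNAs. rn7sk, an RNA that restrains transcription elongation, stood at 1250.5, 922, 877 and 1279.8 CPM, and a 5_8S_rRNA gene (ENSDARG00000111902) at 220.4, 378, 50.5 and 85.6 CPM. Ribosomal RNA had been depleted, so its values reflect what depletion left.

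The libraries were compared in pairs to see whether any had been deposited more than once. The chi-square statistic of the counts per degree of freedom, which is about 1 for counting noise alone and higher for separate libraries at this depth, was between 17.99, for replicates 3 and 4, and 39.4, for replicates 2 and 3. Across the 14388 genes, which are not independent replicates and share each library's depth, the Pearson correlation of log2 CPM was 0.927 to 0.966 over the 6 pairs. Genes at least 2-fold apart numbered 879 (6.11%) between replicates 3 and 4 and 2459 (17.1%) between replicates 2 and 3. The leading principal component (52.0% of the variance of log2 CPM) set replicate 2 apart, at 57.1 against -1.03, -28.9 and -27.2 for replicates 1, 3 and 4. On the second component (29.6%) replicates 1 and 4 lay at the ends, at 41.8 and -28.9. Library totals were 10307076, 10742406, 12002020 and 12237885 counts, and 18546 genes were counted in replicate 2, against 21431, 23547 and 22046 in replicates 1, 3 and 4.

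The spread between replicates was largest in genes with few counts, and its median exceeded counting error at every level. The median coefficient of variation was 25.4% over all expressed genes, with 10% of genes above 50.6%. It was 36.9% for genes of 1 to 10 CPM, where counting error alone gives 13.1%, and 22.5% for genes of 10 to 100 CPM, where it gives 5.66%. For genes of 100 to 1000 CPM it was 15.8% and above 1000 CPM 14.2%. The common biological coefficient of variation from edgeR was 0.309, and 0.268 without replicate 2.

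**Figure D5:**
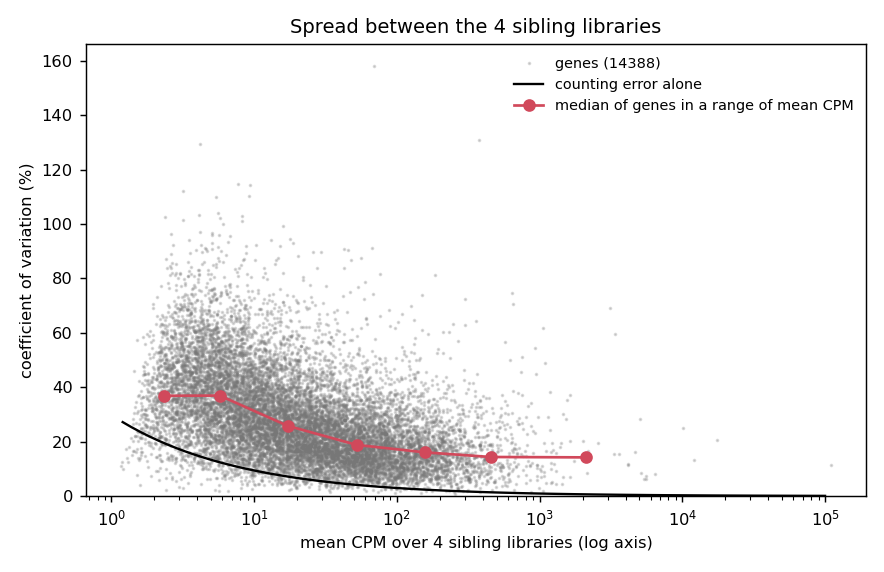
Coefficient of variation over the 4 sibling libraries (y axis, %) against mean CPM (x axis, log axis), 1 grey point per expressed gene. The red line, the median in ranges of mean CPM, stays above the black line of counting error alone at every level.

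The most even genes with a mean of 100 CPM or more were SLC25A3, the mitochondrial phosphate carrier (255, 252, 251 and 256 CPM), and the splicing factor gene SRSF6 (ENSDARG00000016783, 148, 147, 147 and 144 CPM). DNAJA2 (ENSDARG00000104066), RBMS1 (ENSDARG00000074023), cltca, which encodes the clathrin heavy chain (859.8, 892, 863 and 873 CPM), dlgap5, znf865, UBE2M, GTPBP4 and tnikb followed. All 10 lay within a coefficient of variation of 1.83%. For SLC25A3 (0.911%) and SRSF6 (1.13%) that was below counting error alone, which gives 1.87% and 2.46%. Of the 10, only RBMS1, cltca and GTPBP4 lay above counting error. Their order was thus not separated from counting error.

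Genes below 1 CPM in any library were left out of the ranking by spread. Among expressed genes with a mean of 10 CPM or more, ncam3, a cell adhesion gene, was the most uneven, with 3.105, 22.8, 18.1 and 234 CPM. It was followed by krt17 (1.07, 21.3, 43.2 and 33.8 CPM), si:ch211-98n17.5 and evpla. Of the next genes, anxa1c, an annexin of the epidermis list, stood at 5.82, 16.8, 92.7 and 65.1 CPM, CAPN9, a calpain protease gene, at 3.202, 8.66, 43.7 and 48.2 CPM, and cdh27 at 1.46, 5.31, 18.5 and 21.7 CPM. Those 3 were higher in replicates 3 and 4 than in replicates 1 and 2. ENSDARG00000115988, which has no symbol, stood at 136, 1117, 83.3 and 176 CPM, apart in replicate 2. The other genes among the 20 were ftr86, si:cabz01007794.1, si:ch211-125o16.4, si:ch211-195b11.3, parp4, si:ch211-232i5.1, znf185, ABCA12, abcb5, mid1ip1a, BAMBI and PLCD1. Ranked were 9542 expressed genes with a mean of 10 CPM or more. Among the 100 most uneven were 10 of 28 epidermis genes, 4 of 43 heat shock genes, 2 of 8 notochord genes and 1 of 112 endothelial genes. The last is near the share of 100 in 9542. Of the 100, 45 were highest in replicate 3 and 32 in replicate 4, against 24.4% and 26.3% of all expressed genes.

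In 472 of 9550 genes with a mean of 10 CPM or more (4.94%), counted here whether or not each library reached 1 CPM, a single library lay at least 2-fold above, or at least 2-fold below, each of the other 3. Of these, 8 did both through different libraries, so that 121 genes had a library above and 359 a library below. Replicate 2 accounted for most, with 67 genes above and 238 below. Replicate 1 had 3 above and 65 below, replicate 3 had 17 above and 17 below, and replicate 4 had 34 above and 39 below. In replicate 1 the genes below included 11 of 29 epidermis genes, against 0.681% of all 9550 genes. In replicate 2 the genes below included 3 of 6 cardiac muscle genes, against 2.49% of all 9550. Also below in replicate 2 were jag2a, a Notch ligand gene (9.12, 0.279, 16.9 and 17.00 CPM), and spint1b, an epithelial protease inhibitor gene (16.98, 0.186, 17.7 and 11.4 CPM). The genes above in replicate 2 included TGFB2 (8.83, 28.1, 10.2 and 8.09 CPM), a growth factor gene, and gap43 (16.2, 47.1, 18.1 and 16.3 CPM), of growing axons.

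Among the 17 genes in which replicate 3 stood above were CYP26B1 (ENSDARG00000077121, 32.6, 13.96, 98.8 and 24.02 CPM), which degrades retinoic acid, DHRS3 (ENSDARG00000044803, 8.83, 7.17, 26.8 and 12.09 CPM), which reduces retinaldehyde, and GPR182 (6.79, 8.94, 23.4 and 9.56 CPM), a receptor of endothelial cells. P4HA1 (ENSDARG00000071082), a collagen prolyl hydroxylase gene, stood at 48.02, 20.7, 107 and 16.3 CPM. Replicate 4 stood above in acvrl1 (18.3, 36.96, 33.8 and 97.97 CPM), an endothelial receptor of circulating BMP ligands, and in SMAD6 (ENSDARG00000031763, 19.9, 31.4, 28.8 and 87.4 CPM), an inhibitor of BMP signals. It also stood above in nog2, which encodes a BMP antagonist (6.89, 6.05, 8.25 and 26.6 CPM), and in DGKH (29.6, 23.8, 42.1 and 129 CPM), a diacylglycerol kinase gene. The genes below in replicate 4 included 5 of 43 heat shock genes, against 0.408% of all 9550 genes with a mean of 10 CPM or more. Also below were HSPA2 (447, 238, 235 and 65.5 CPM) and the mitochondrial gene mt-nd4l (14.5, 16.1, 17.6 and 2.78 CPM).

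The threshold of 1 CPM corresponds to 10.3, 10.7, 12.0 and 12.2 counts in replicates 1 to 4. Just inside it lay zgc:112994, zgc:174863, SHLD2 and nkd3, whose lowest library had 1.02 CPM, and just outside it IRAG1, il17rel, CALN1 and LHFPL6, whose lowest library had 0.99983 CPM. A further 1992 genes reached the threshold in 3 of the 4 libraries. The missing library was replicate 2 for 992 of them, replicate 1 for 437, replicate 4 for 346 and replicate 3 for 217. Another 1524 genes reached it in 2 libraries and 2392 in 1, and 6337 genes had no count in any. The expressed genes held 98.9% to 99.3% of each library's counts. Of them 13935 have a symbol and 453 do not.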

How the data were processed

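Whole-transcript RNA of kdrl-positive cells was sequenced from 8 samples, of which the 4 sibling libraries were used. The deposited values are raw read counts for each Ensembl gene, and as whole numbers they show no normalization by the authors. Per the submitters' processing notes, the build was GRCz10 and the tools were STAR 2.4.2a, Cufflinks 2.2.1, Picard and Trim Galore. How reads were counted (tool, strand, annotation) is not given in the sources consulted, so overlapping and antisense genes cannot be told apart. Unspliced and non-polyadenylated RNA remains after ribosomal depletion. No molecular identifiers are named, so counts may include PCR duplicates, and counting floors cover counting error only.

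Counts were divided by each column's total (10307076 to 12237885) to give CPM. Symbols came from a table of Ensembl names (29178 of 31901 genes). Entries of 36 gene lists were matched by symbol in any case, or failing that without the final paralogue letter, which takes every gene of that symbol. Members and lists were chosen with earlier results of these data known. Named genes were the 30 of largest mean share and the 5 highest and the uncounted genes of each list. Named too were the 20 most and 10 least variable expressed genes by the SD of log2(CPM + 0.5). Up to 10 genes furthest above or below in each library were added. Further genes of the lists, HBE1 and malat1 among them, were named after their values were seen. The biological coefficient of variation came from edgeR 4.0.16 (R 4.3.3, intercept only), and other values from Python 3.11.15 with pandas 2.3.3, NumPy 2.4.6 and SciPy 1.17.1. The scripts were tested on simulated data. The alternatives were TMM and RLE library sizes, other thresholds, other totals and leaving out each replicate.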

Additional observations from a re-analysis of the deposited data

Results flagged for a closer look

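Sets of 4 values were examined for the list sums, 280 genes and measures of each library such as its total counts. The 280 were taken by rank, by spread or as markers, with SF3B1, the HBE1 genes and malat1. Other list genes given above were not examined. In 33 of 322 sets a single library lay apart from the other 3 by Dixon's 95% criterion. Chance alone meets that criterion in about 1 of 20 groups. Many of the genes were named because a library stood apart, so the share of 10.25% has no reading of its own. Replicate 2 was the library apart in 20 of the 33 sets, replicate 4 in 8, replicate 3 in 4 and replicate 1 in 1. No cause was tested.

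In replicate 2 the summed CPM of the ribosomal protein genes was high at 45332 CPM, as was RPL6 at 1602 CPM, while RPL3 was low at 1456 CPM. Among blood genes, replicate 2 was apart above in hbae1.2 at 203.8 CPM, in SPI1 (ENSDARG00000000767) at 266.6 CPM and in HBE1 (ENSDARG00000097238) at 2.33 CPM. The same library was apart above in cenpe at 780.6 CPM, ENSDARG00000115988 at 1117 CPM, cpn2 at 95.4 CPM, ing5a at 69.0 CPM, CIR1 at 43.0 CPM and CIAO2A at 57.2 CPM. It was also above in NOP10 at 33.9 CPM, dtwd2 at 47.7 CPM, TGFB2 at 28.1 CPM, FAM50A at 65.2 CPM, gap43 at 47.1 CPM and TECTA at 17.4 CPM. It lay below in SORT1 at 5.03 CPM and slc2a4rg at 2.61 CPM.

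Replicate 4 was apart above in eef2b at 7269 CPM, ncam3 at 233.8 CPM, nog2 at 26.6 CPM, zmiz1b at 36.0 CPM, SMAD6 at 87.4 CPM and SRC at 63.8 CPM. It was apart below in EGR2 (ENSDARG00000042826) at 11.2 CPM and NCAN at 8.17 CPM. Replicate 3 was apart above in sox18 at 260.9 CPM, PNP at 41.7 CPM and GPR182 at 23.4 CPM, and below in tfr1a at 593.0 CPM. Replicate 1 was apart above in RPIA at 32.6 CPM.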

How the results depend on the processing

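No paired analysis was possible because a single group is described and no groups are compared. Scaling by TMM or RLE sizes left the number of expressed genes at 14388, since the limits fall between the same whole counts. Other settings gave 15503 genes at 0.5 CPM, 10369 at 5 CPM and 16380 with 3 of 4 libraries required. Totals without the listed mitochondrial and small RNA genes gave 14469, and leaving out 1 replicate gave 14605 to 15380. The median coefficient of variation of 25.4% became 46.3% without a filter and 21.1% from 5 CPM, and was 20.9% to 25.1% without 1 replicate. The biological coefficient of variation of 0.309 became 0.603 without a filter and 0.255 from 5 CPM, and was 0.268 to 0.328 without 1 replicate. The 472 genes with a library apart became 1042 from a mean of 5 CPM and 40 at 4-fold. Totals without the 2 genes of largest share, an alternative chosen after seeing the data, remove 12.7% of counts. They raised every list sum by nearly the same factor, 1.145 to 1.15. For 280 genes taken by rank, by spread or as markers, CPM rose by 1.135 to 1.154 where there were counts. Other list genes given above were not checked. That exceeded the SD only where libraries differed little, for 51 named genes and 12 list sums: hemogenic 1012, neutrophil 1074, neural 2611, mural 949.0, pronephros 638, ribosomal 47309, translation 26440, histone 4775, heat shock 29100, mitosis 8642, cytoskeleton 28338 and glycolysis 1167 CPM. Adding HBE1, also chosen later, brought the globins to 14300 CPM. List sums without 1 replicate were 0.805 to 1.18 of their values with all 4, and the CPM of the 280 genes stayed within 1 SD with TMM and RLE sizes. Leaving out 1 of 4 libraries cannot move a mean by 1 SD, so those values say nothing of stability. Ranking per kilobase was not run, as no transcript lengths were at hand. Low depth limits genes near 1 CPM, where counting error is largest.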
